A study of Papio anubis with 28 samples.

Results

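Bladder tissue regenerated on the graft labelled PRS was compared with bladder tissue regenerated on SIS in olive baboons (Papio anubis). The comparison holds 9 of the 28 RNA-seq libraries of the series, chosen by their titles and animal codes: 4 PRS regenerated libraries and 5 SIS regenerated libraries, each from a different animal. Both grafts carried primary bone marrow cells, namely mesenchymal stromal cells (MSC) and CD34+ haematopoietic stem and progenitor cells (HSPC), and the genotype is given as WT in both groups. The treatment, tissue and cell labels do not differ between the groups, so the title and the code alone tell them apart. SIS is read as small intestinal submucosa, and PRS is spelled out in no label. Each of the 9 animals also gave a native bladder library, which is set beside the regenerated values below. Not given in the labels are the time from surgery to sampling and the layers of the wall that each piece held. No unseeded scaffold is among the samples used here, so the scaffold and the seeded cells cannot be told apart within a group.

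The bladder wall consists of the urothelium, a barrier epithelium coated on its surface by uroplakin proteins, a fibrous layer with vessels and nerves, and the detrusor, a thick coat of smooth muscle. SIS is a sheet of intestinal matrix freed of its cells and has long been used as a patch for bladder augmentation. A patch is repopulated from the edges by urothelium, muscle and vessels, and repair draws on proteases that remodel the matrix, on collagen-making fibroblasts and on recruited immune cells. In a piece of bulk tissue, fewer cells of a type and less RNA per cell cannot be told apart.

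Total counts of the 9 libraries lay between 23598232 and 31743317. Levels are in CPM, counts per library total after edgeR's TMM scaling, and fold changes are log2 values of PRS minus SIS. The markers of urothelium, smooth muscle, fibroblasts and endothelium that the table holds were present in all 9 libraries. The PRS libraries were on average farther from each other than from the SIS libraries, and the SIS libraries closer to each other than to the PRS libraries. With distance taken as 1 minus the Pearson correlation of log2(CPM + 1), the mean was 0.115 over the 6 pairs of PRS libraries, 0.0744 over the 10 pairs of SIS libraries and 0.0922 over the 20 pairs across groups. The PRS mean rested on PRS 2, which was at 0.116, 0.196 and 0.206 from PRS 1, 3 and 4. Among PRS 1, 3 and 4 the distances were 0.063, 0.0763 and 0.0346, all below the mean across groups. That mean still held the pairs of PRS 2. PRS 1 was closer to SIS 1, 3, 4 and 5 (0.0392, 0.0352, 0.0367 and 0.0318) than to PRS 3 or 4. PRS libraries 3 and 4 were each other's nearest neighbour, whereas PRS 1 lay nearest to SIS 5, PRS 2 to SIS 1 and SIS 4 to PRS 1. The distance of each regenerated library from the native bladder of its own animal was 0.0700 ± 0.0385 (SD, n = 4) in the PRS arm and 0.0825 ± 0.0571 (SD, n = 5) in the SIS arm, with a two-sided exact permutation p of 0.706. The smallest p that these group sizes allow is 0.0159.

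No gene passed the threshold in the comparison of all genes. Of 17177 genes tested with edgeR's quasi-likelihood test, 0 had an adjusted p under 0.05, and the smallest Benjamini-Hochberg adjusted p was 1. At an unadjusted p under 0.05, 326 genes (1.90%) were higher and 437 genes (2.54%) lower in PRS. These shares are the background against which the counts of list members below are read. The lists were chosen with earlier results of these data known, and members of a list could move together in 1 library. The counts are therefore no test of a list. DESeq2, run as the alternative tool on 17131 genes, called 8 genes higher (0.0467%) and 7 lower (0.0409%). In 11 of these 15 calls 1 of the groups had no read at all. The 4 calls with reads in both groups were HMOX1, ACOT13 and SOCS2, all lower in PRS, and 1 gene without a symbol that was higher. The median log2 fold change over all genes was 0.01. For 63.5% of genes the 95% interval lay within 4-fold either way, and for 30.9% within 2-fold. The median half-width of that interval was 1.05 on the log2 scale. The 24 genes with a symbol of smallest p, 12 in each direction, are described below, with the leading members of each gene list; other named genes were chosen after their values were seen. Of the 24, 10 of the 12 higher and 7 of the 12 lower kept an unadjusted p under 0.05 whichever library was left out. The 24 were picked by their p in these same libraries, so that count is no independent support.

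**Figure D1:**
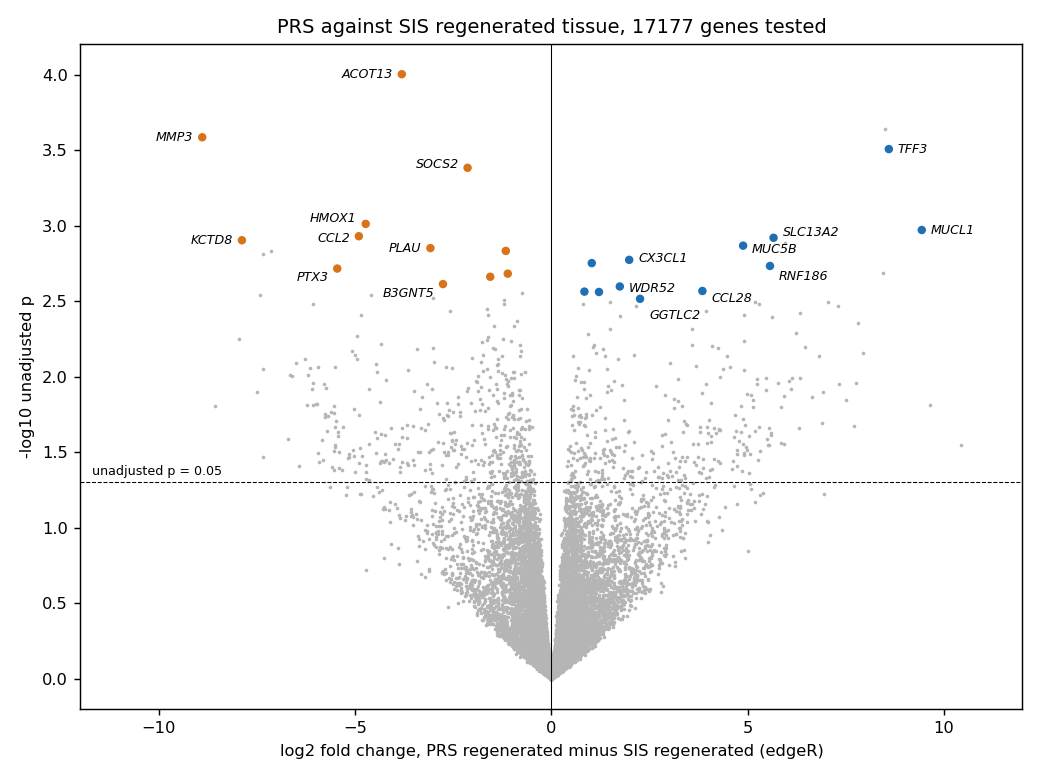
Log2 fold change (PRS minus SIS regenerated, x axis) against the unadjusted edgeR p on a -log10 scale (y axis) for 17177 genes, 1 point each. Coloured points are the 24 genes of smallest p with a symbol and at least 1 CPM in the higher group, blue for 12 higher and orange for 12 lower in PRS; none passed an adjusted p of 0.05.

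**Figure D2:**
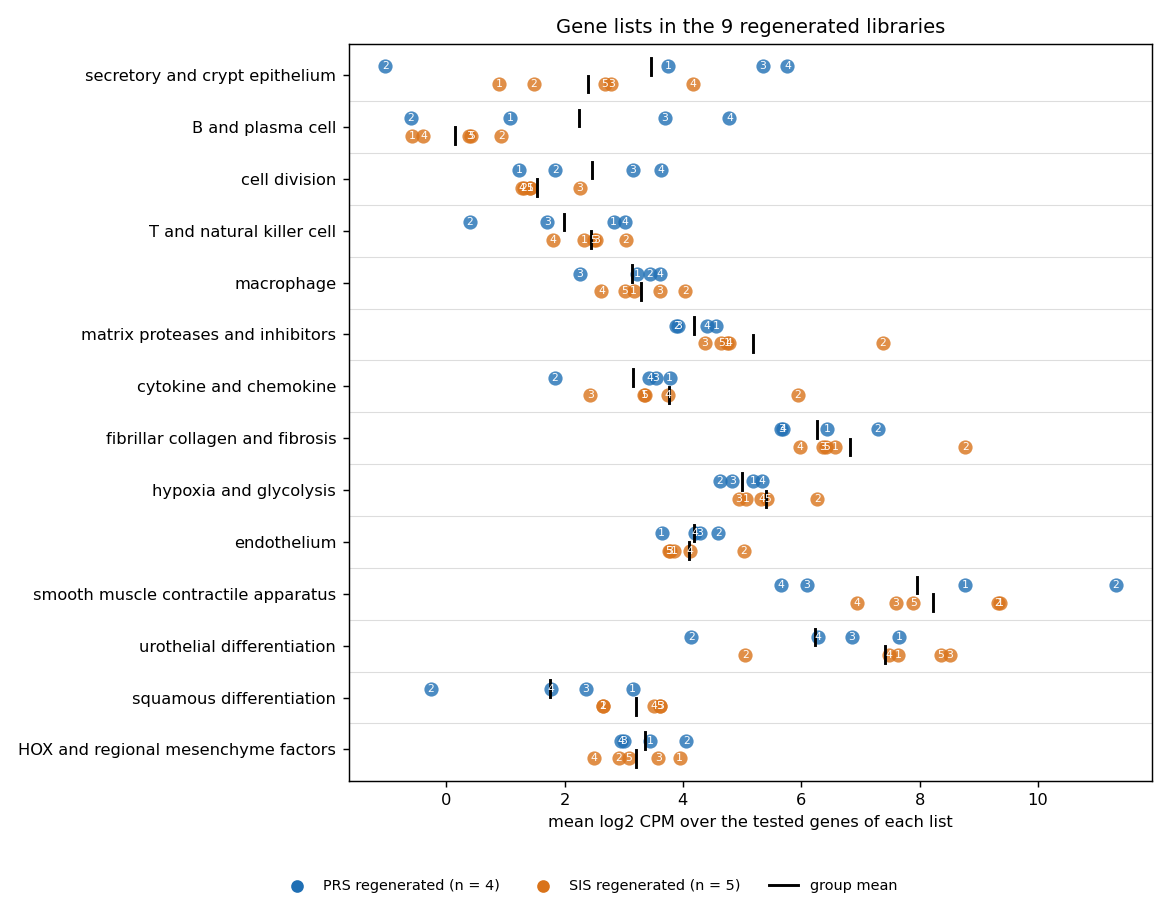
Mean log2 CPM over the tested genes of 14 lists (x axis) in each regenerated library, PRS in blue (n = 4) and SIS in orange (n = 5), with the library number in each point and a bar at the group mean. PRS 3 and 4 lead the B and plasma cell list at 3.69 and 4.79, SIS 2 leads the list of matrix proteases and inhibitors, and PRS 2 leads the smooth muscle list at 11.3.

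Several genes of mucus-secreting epithelium were higher in PRS libraries 3 and 4 than in any SIS library. The animal codes of PRS 3 and 4 and SIS 4 and 5 hold the letter M, and those of the other regenerated libraries F. The labels do not explain the letter. Within PRS the letter cannot be told apart from this pattern or from the B cell pattern below. TFF3, a small peptide secreted with mucus by goblet cells, was at 0, 0, 40.0 and 74.4 CPM in PRS libraries 1 to 4 and at 0, 0, 0, 0.307 and 0 CPM in SIS libraries 1 to 5. PRS 1 and 2 thus had no read of it, like 4 of the SIS libraries. The log2 fold change of TFF3 was 8.60 (SE 2.07, unadjusted p 0.000312, adjusted p = 1 in edgeR's quasi-likelihood test). MUC5B, a gel-forming mucin, was at 2.50, 0, 48.7 and 6.15 CPM in PRS and at 0.577, 0, 1.39, 0 and 0.388 CPM in SIS, a log2 difference of 4.88 (SE 1.36). Without PRS 3 the MUC5B difference was 2.57. The groups overlapped for both genes through the low PRS libraries.

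The list of secretory and crypt epithelium genes had 14 members tested, of which 5 were higher and 0 lower in PRS at an unadjusted p under 0.05, beside the background of 1.90%. The 5 were TFF3, MUC5B, AGR2, FCGBP and CLCA1. The median log2 fold change of the list was 1.54, or 2.03 without 1 member that had no more than 3 reads in either group, beside 0.01 over all genes. FCGBP, a large mucus protein, reached 42014 CPM in PRS 3 and 27769 CPM in PRS 4, against 1606 and 1.96 CPM in PRS 1 and 2 and 6.31, 24.2, 124, 4985 and 54.7 CPM in SIS. CLCA1, a protease secreted with mucus, was at 1601, 6.15, 16775 and 8293 CPM in PRS and at 95.4, 118, 677, 2215 and 1012 CPM in SIS. AGR2, a folding enzyme for mucins, was at 148, 2.44, 633 and 1723 CPM in PRS and at 62.2, 27.3, 91.5, 302 and 48.3 CPM in SIS. In all 3 genes PRS 3 and 4 stood above every SIS library and PRS 2 stood below every one. SIS 4 was the highest SIS library in each of the 3. The number of members higher was 2 without PRS 4, SIS 1, SIS 2, SIS 3 or SIS 5, 3 without PRS 3 and 7 without SIS 4, and the median lay between 0.68 (without PRS 4) and 3.65 (without SIS 4).

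A further 4 genes with this pattern were among the 12 named genes higher in PRS. MUCL1, a small mucin-like secreted protein, was at 0.173, 0, 6.84 and 5.60 CPM in PRS and had no read in any SIS library, which makes it at least 151-fold higher in PRS (against 3 counts over the SIS group). CCL28, a chemokine of mucosal epithelia that attracts antibody-secreting cells, was at 1.04, 2.24, 21.9 and 55.3 CPM in PRS and at 0.712, 1.08, 1.11, 3.23 and 0.814 CPM in SIS, a log2 difference of 3.85 (SE 1.16). SLC13A2, a sodium-coupled dicarboxylate transporter, was at 0.173, 0, 13.2 and 18.5 CPM in PRS and at most 0.625 CPM in SIS. In these 3 genes PRS 3 and 4 stood above every SIS library. RNF186, a ubiquitin ligase of epithelia, rested on PRS 3, which had 8.59 CPM while the other 8 libraries had at most 0.434 CPM; without PRS 3 its log2 difference dropped from 5.57 to 1.63. OLFM4, a secreted glycoprotein of crypt cells, differed in that PRS 3 was low: it was at 38.9, 0.759, 2.17 and 1150 CPM in PRS, and SIS 4 stood above PRS 1 to 3. RETNLB, a goblet cell product, was at 1097 CPM in PRS 3, 135 CPM in PRS 4, 34.2 CPM in SIS 4 and 0 in the other 6.

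Genes of the absorptive epithelium of the intestine had no common direction, with 9 positive and 8 negative log2 fold changes. Of 21 members tested, 2 were higher and 0 lower in PRS at an unadjusted p under 0.05, and the count of higher members was 4 without PRS 4. Both were under 1 CPM in every library. VIL1, the microvillus protein villin, was at 0.243, 0.519, 0.421 and 0.394 CPM in PRS and at 0, 0.140, 0.163, 0 and 0.233 CPM in SIS, so the groups did not overlap but PRS 1 and SIS 5 nearly touched. SLC15A1, a peptide transporter, was at 0.139, 0, 0.292 and 0.0789 CPM in PRS and had no read in SIS. SLC5A1, a sodium-glucose cotransporter, was at 3.85, 0, 91.4 and 238 CPM in PRS and at 0, 0.327, 0.0544, 36.7 and 0.814 CPM in SIS. Its high libraries were PRS 3, PRS 4 and SIS 4, as for FCGBP, and its log2 difference of 3.45 (SE 1.90) did not reach an unadjusted p under 0.05. LGALS4, a galectin of gut epithelium, was at 43.5, 6.59, 54.7 and 34.0 CPM in PRS and at 91.2, 9.26, 181, 50.8 and 129 CPM in SIS, and the groups overlapped. CDX2, a transcription factor of intestinal identity, was at most 0.561 CPM, and SI, FABP1, APOA4 and ALPI had no read in any of the 9 libraries.

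The native bladders of the same animals shared part of this pattern. PRS native 4 had 15.2 CPM of TFF3, 11577 CPM of FCGBP, 28.3 CPM of CCL28 and 1435 CPM of OLFM4, and was the highest of the 9 native libraries for each of the 4. PRS native 3 had no TFF3 read and 500 CPM of FCGBP. At an unadjusted p under 0.05, 6 members of the secretory list were higher in PRS than in SIS native bladder, beside 4.19% of all genes, and the list's native median was 2.27. Without PRS native 4 these were 2 members and a median of 0, and the count was 3 without SIS native 4 or SIS native 5. For TFF3 the regenerated difference exceeded the native one by 0.25 (SE 3.18) on the log2 scale, an edgeR adjusted p of 1.00.

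B and plasma cell genes had the largest median difference of the 32 lists. All 16 members tested had a positive log2 fold change, 10 were higher at an unadjusted p under 0.05 (background 1.90%) and 0 lower, and the median was 3.07. The mean log2 CPM of the list was 1.08, -0.60, 3.69 and 4.79 in PRS 1 to 4 and -0.57, 0.93, 0.39, -0.38 and 0.42 in SIS 1 to 5. PRS 3 and 4 stood far above all SIS libraries, PRS 1 slightly above them, and PRS 2 at the level of the lowest. CXCL13, the chemokine that draws B cells into follicles, was at 3.15, 0, 79.7 and 117 CPM in PRS and at 0, 1.03, 0.245, 0 and 3.33 CPM in SIS, a log2 difference of 5.78 (SE 2.11). MS4A1, which encodes CD20, was at 0.312, 0, 11.6 and 24.8 CPM in PRS and at most 0.853 CPM in SIS. PAX5, the transcription factor that fixes B cell identity, was at 0.0347, 0, 2.14 and 1.62 CPM in PRS and had no read in any SIS library. Over the PRS group it was at least 45.6-fold higher (against 3 counts over the SIS group), through PRS 3 and 4. JCHAIN, which joins secreted antibodies into polymers, overlapped between the groups, at 49.2, 30.8, 121 and 658 CPM in PRS and 74.5, 163, 72.8, 91.3 and 38.1 CPM in SIS.

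The B cell pattern was also present in native bladder. MS4A1 was at 0, 0, 30.0 and 147 CPM in the PRS native libraries 1 to 4 and at most 1.18 CPM in the SIS native libraries, so animals 3 and 4 were the high ones in both tissues. In native tissue 13 of the 16 members were higher in PRS at an unadjusted p under 0.05 and the median was 5.00, above the regenerated median; without PRS native 4 it was 2.87. None of the 16 differed between the regenerated and native contrasts at an unadjusted p under 0.05, against 3.98% of all genes. Without PRS 4 the regenerated median was 1.94, with 4 members higher, and without SIS 3 there were 6 members higher. The T and natural killer cell list, by contrast, had 0 of 20 gene records at an unadjusted p under 0.05 in regenerated tissue and a median of -0.17. In native bladder 9 of those records were higher in PRS, but 0 without PRS native 4, 2 without SIS native 4 or SIS native 5 and 5 without SIS native 1. The mean log2 CPM of the list was 2.06, -0.001, 3.03 and 4.72 in the PRS native libraries and -0.42 to 2.74 in the SIS native libraries, so PRS native 2 was lower than all SIS native libraries except SIS native 4. The macrophage list had 0 of 18 members at that level and a median of -0.16. Cell division genes had 17 of 18 members with a positive value, 1 at an unadjusted p under 0.05 (PLK1, a mitotic kinase) and a median of 1.09. That count was 0 without PRS 3, PRS 4, SIS 1, SIS 2 or SIS 5 and 3 without PRS 1 or SIS 3. MKI67, the proliferation marker, was at 0.520, 4.07, 11.8 and 32.9 CPM in PRS and at 0.441, 3.41, 5.35, 0.613 and 2.36 CPM in SIS, and thus overlapped.

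**Figure D3:**
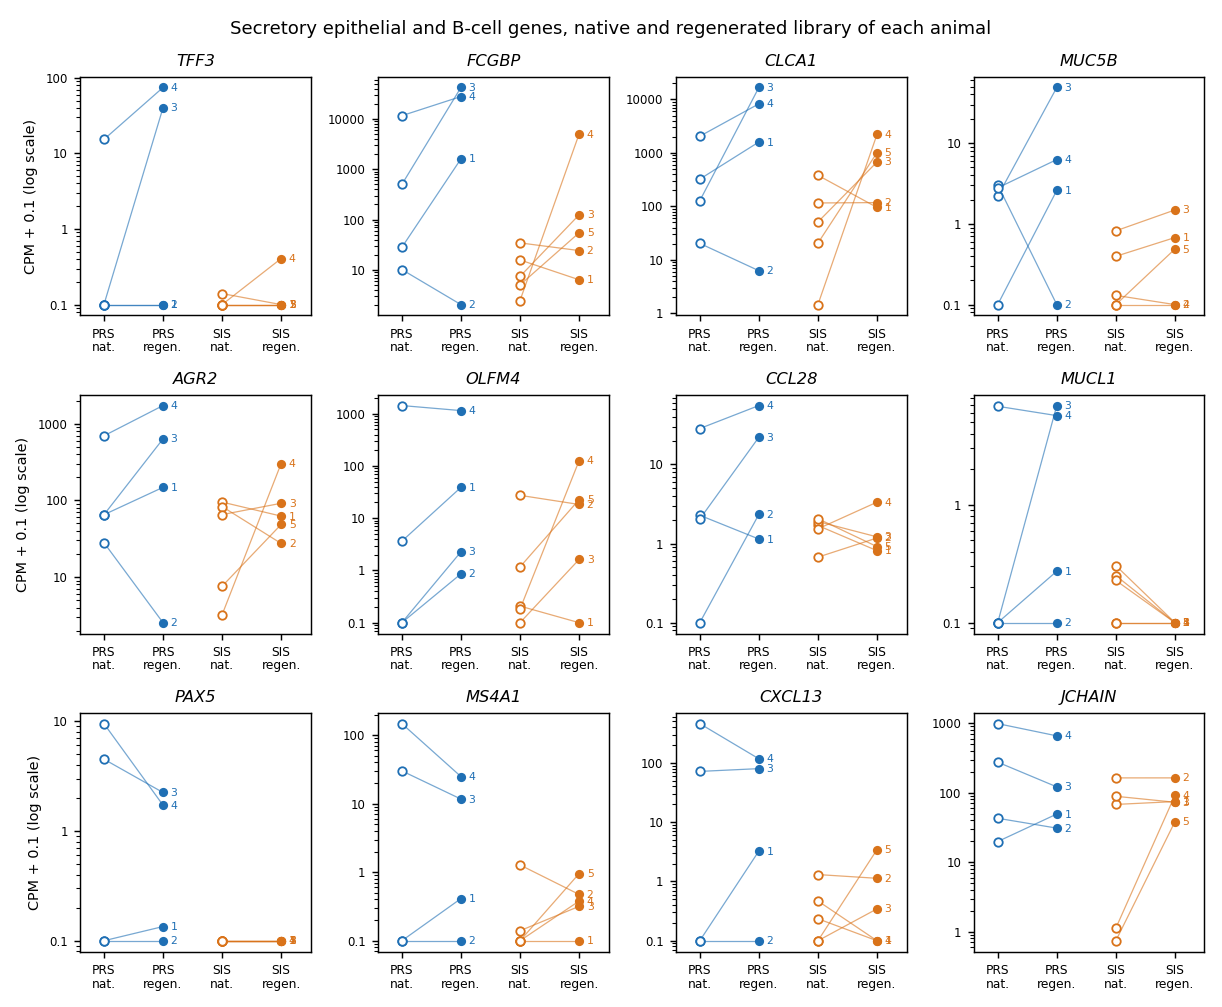
CPM + 0.1 on a log scale (y axis) of 8 secretory epithelial genes and 4 B and plasma cell genes in the native (open) and regenerated (filled) library of each animal, joined by a line, PRS in blue and SIS in orange; numbers are the animals' library numbers. PRS 3 and 4 stand above the SIS regenerated libraries for TFF3 and MS4A1, and for MS4A1 they do so in native bladder too.

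Of the 12 named genes lower in PRS, 5 were very high in SIS 2 and lost an unadjusted p under 0.05 without it: MMP3, CCL2, HMOX1, PLAU and PTX3. Over all genes, 355 (2.07%) were lower at that level without SIS 2, against 437 with it. SIS 2 had 71 genes at 8-fold or more above all other 8 regenerated libraries and at least 1 CPM, against 34 in PRS 4, 18 in PRS 2, 8 in PRS 3, 5 in PRS 1 and at most 3 in any other SIS library. In the native bladder of the same animal, 4 of the 71 were also at 8-fold or more above those 8 libraries, against 28 of the 34 of PRS 4. MMP3, a protease that cleaves matrix proteoglycans, was at 814 CPM in SIS 2 and at 0.577, 0.788, 0.279 and 1.90 CPM in SIS 1, 3, 4 and 5. The PRS libraries had 0.728, 0, 0 and 0.631 CPM of it. Its log2 difference was -8.89 (SE 2.10, unadjusted p 0.00026, edgeR adjusted p = 1) and was -1.37 without SIS 2. CCL2, a monocyte chemokine, was at 1196 CPM in SIS 2, at 13.4, 6.28, 6.16 and 23.9 CPM in the other SIS libraries and at 9.22, 10.3, 5.06 and 8.72 CPM in PRS. HMOX1, the haem-degrading stress enzyme, was at 906 CPM in SIS 2, at 5.13 to 9.73 CPM in the other SIS libraries and at 4.75 to 13.5 CPM in PRS; without SIS 2 its difference went from -4.73 to 0.07. PLAU, the urokinase protease, was at 892 CPM in SIS 2 and between 20.8 and 43.3 CPM in the other 8. PTX3, a secreted pattern-recognition protein, was at 473 CPM in SIS 2 and between 0.194 and 10.8 CPM in the others.

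Lists of matrix remodelling and inflammation moved with that library. Among matrix proteases and their inhibitors, 0 of 19 members were higher and 4 lower at an unadjusted p under 0.05 (background 2.54%), with a median of -0.66. The 4 were MMP3, PLAU, MMP1 (an interstitial collagenase) and ADAMTS4 (an aggrecanase). Among fibrillar collagen and fibrosis genes 4 of 25 were lower, with a median of -0.85, and the count was 7 without PRS 2 and 2 without PRS 3 or PRS 4. They included TNC, a matrix protein of wounds, TGFB1 and TGFBI. Among cytokines and chemokines 5 of 17 were lower, with a median of -0.58: CCL2, IL6, PTGS2, IL11 and CXCL8. Without SIS 2 none of these 13 genes kept an unadjusted p under 0.05, and the 3 medians were 0.04, 0.05 and 0.07. The mean log2 CPM of the protease list was 7.38 in SIS 2, between 4.37 and 4.78 in the other SIS libraries and between 3.89 and 4.56 in PRS. The endothelium list was also highest in SIS 2, at 5.03 against 3.64 to 4.60 in the other 8, and the part of vessels in these differences was not tested.

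The largest values within these lists show the size of the gap. MMP1 was at 2092 CPM in SIS 2 and at 0 to 32.8 CPM in the other 8 libraries. TNC was at 1544 CPM in SIS 2, at 39.7, 58.9, 143 and 98.2 CPM in the other SIS libraries and at 104, 60.0, 116 and 62.1 CPM in PRS. IL6 was at 599 CPM in SIS 2 and at 0.408 to 7.10 CPM elsewhere. TNFAIP6, a hyaluronan-binding protein of inflamed tissue, was at 1453 CPM in SIS 2 and at 0.713 to 28.3 CPM elsewhere. The structural collagens differed less: COL1A1 was at 6778 CPM in SIS 2, between 1057 and 2335 CPM in the other SIS libraries and at 950, 3860, 574 and 1090 CPM in PRS, where PRS 2 exceeded 4 of the 5 SIS libraries. Its log2 difference was -0.69 (SE 0.82) with all libraries and 0.05 without SIS 2. ELN, which encodes elastin, was at 450 CPM in SIS 2 and between 34.3 and 114 CPM in the other 8.

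Some other lists held members that were highest in SIS 2. In the hypoxia and glycolysis list 3 of 12 members were lower in PRS at an unadjusted p under 0.05 (PFKFB3, NDRG1 and PGK1), and the median of -0.45 became -0.27 without SIS 2. The count was 2 without SIS 2 and 1 without PRS 3 or SIS 5. NDRG1, a stress-induced protein, was highest in SIS 5, at 356 CPM, with 214 CPM in SIS 2. PGK1, a glycolytic enzyme, was at 178, 172, 123 and 167 CPM in PRS and at 217, 291, 213, 154 and 233 CPM in SIS, where only SIS 4 fell within the PRS range. In the TGF-beta and BMP list 2 of 21 were lower, FST and INHBA, which encode follistatin and an activin subunit that follistatin binds. Both were highest in SIS 2, FST at 357 CPM and INHBA at 287 CPM. The count was 6 without PRS 1, 1 without SIS 2 and 0 without PRS 3 or PRS 4. In the immediate early list 2 of 20 were lower, MYC and FOSL1, both highest in SIS 2, and the count was 1 without PRS 2, PRS 3 or PRS 4 and 0 without SIS 2. HAS1, a hyaluronan synthase, was at 306 CPM in SIS 2 and at most 5.89 CPM elsewhere. ITLN1, a lectin of serosal and mucus-secreting cells and the other mesothelial list member at that level, was instead higher in PRS, at 30.0, 7.51, 3697 and 190 CPM in PRS and at 0.543, 6.03, 0.272, 53.4 and 0.116 CPM in SIS, and its log2 difference of 6.34 was 2.65 without PRS 3.

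**Figure D4:**
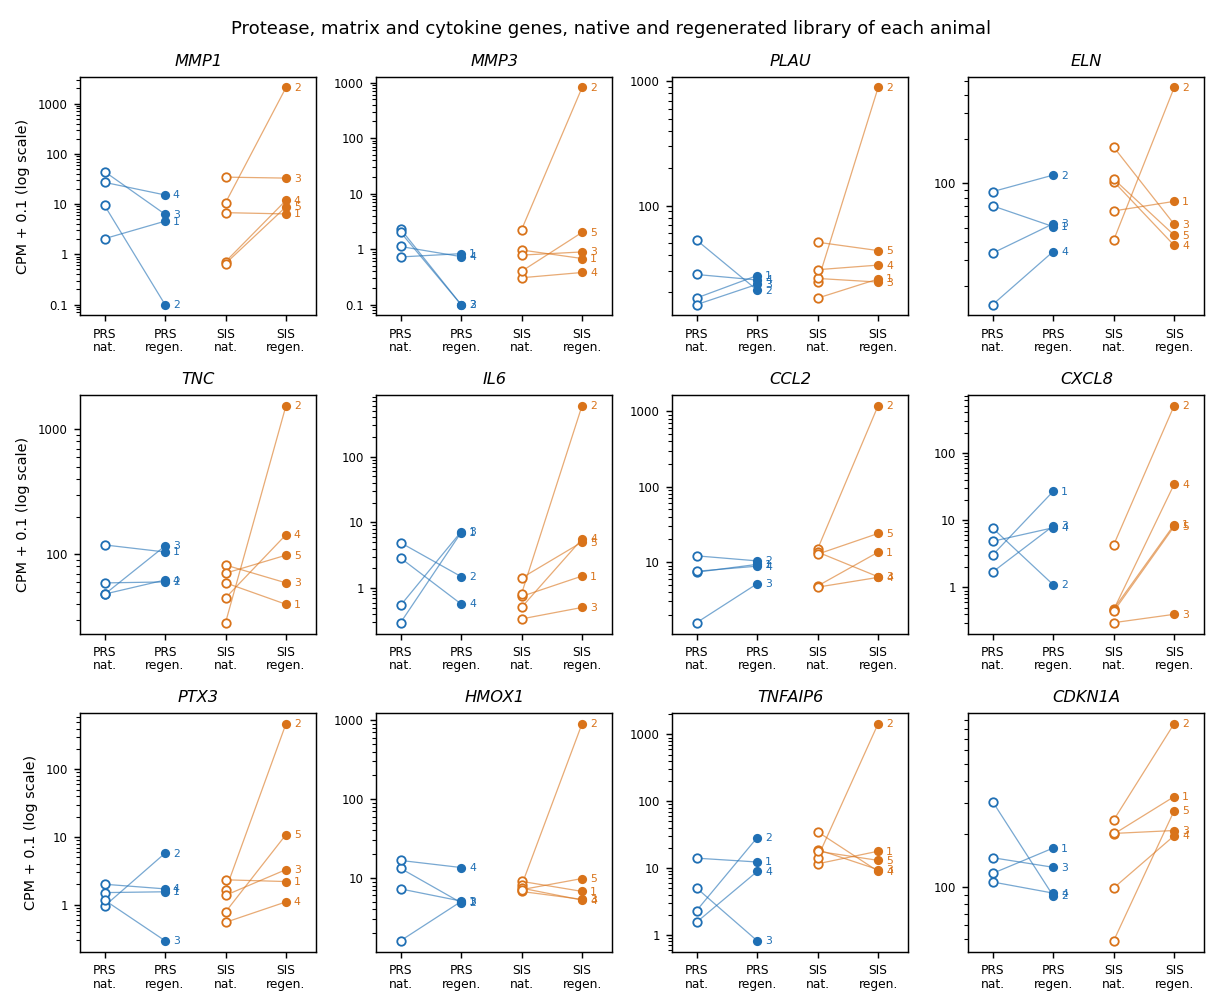
CPM + 0.1 on a log scale (y axis) of 12 protease, matrix, cytokine and stress genes in the native (open) and regenerated (filled) library of each animal, joined by a line, PRS in blue and SIS in orange. SIS regenerated library 2 is the highest of the 9 regenerated libraries in every panel, while MMP3 was at 2.14 CPM in its own native library.

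Groups that did not overlap were found for a further set of genes, in some of which 1 library also stood far above the rest. In 109 genes (0.635% of those tested) every PRS library was above every SIS library, and in 137 (0.798%) every one was below. Of the 24 genes of smallest p, 2 higher and 6 lower in PRS had groups that did not overlap. The 24 were picked by p on these same values, so these counts are no independent support. ACOT13, a thioesterase that releases fatty acids from coenzyme A, was at 0.866, 0.559, 0.778 and 0.434 CPM in PRS and at 18.1, 3.97, 0.978, 10.6 and 12.9 CPM in SIS. SIS 3 was just above the PRS libraries and the other 4 SIS libraries were well above. The log2 difference was -3.81 (SE 0.83, 95% interval -5.51 to -2.11, unadjusted p 9.95e-05), the smallest p of all 17177 genes, yet its edgeR adjusted p was 1; DESeq2 gave an adjusted p of 0.00028. In native bladder ACOT13 was at 1.92, 0.693, 0.367 and 1.48 CPM in PRS and at 18.2, 15.6, 0.759, 12.7 and 14.3 CPM in SIS, so SIS animal 3 was low and the other 4 SIS animals high in both tissues. The native difference was -3.46, and the regenerated difference was -0.35 (SE 1.01) beyond it.

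TYRO3, a receptor kinase that damps innate immune signalling and aids the uptake of dying cells, was at 10.1, 11.9, 13 and 8.84 CPM in PRS and at 19.7, 27.4, 27.6, 19.9 and 27.9 CPM in SIS. The lowest SIS library stood above the highest PRS library. The log2 difference was -1.16 (SE 0.33, 95% interval -1.83 to -0.49), and it stayed between -1.25 and -1.06 when any 1 library was left out. In native bladder the groups overlapped, with 9.0 to 29.7 CPM in PRS and 15.1 to 25.9 CPM in SIS. TYRO3 was lower in the regenerated than in the native library in all 4 PRS animals and higher in all 5 SIS animals, and the difference between those changes was -1.02 (SE 0.45, unadjusted p 0.0324, edgeR adjusted p = 1.00). TYRO3 was named for its regenerated values, which that difference also holds, so its p is not independent of the choice.

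SOCS2, an inhibitor of growth hormone and cytokine signalling, was at 14.1, 14.5, 5.77 and 5.56 CPM in PRS and at 16.9, 134, 20.3, 21.5 and 25.9 CPM in SIS, a log2 difference of -2.13 (SE 0.53) that became -1.09 without SIS 2. B3GNT5, a glycosyltransferase of glycolipid synthesis, was at 0.555, 1.20, 0.421 and 0.316 CPM in PRS and at 3.73, 6.03, 2.83, 2.04 and 6.59 CPM in SIS, a log2 difference of -2.76 (SE 0.82). TRO, which encodes trophinin, was at 5.75, 8.91, 7.52 and 11.5 CPM in PRS and at 25.6, 18.7, 16.7, 14.2 and 15.7 CPM in SIS. Its regenerated difference of -1.11 stood beside a native difference of -0.94. SESN2, a stress-induced regulator of growth signalling, was at 9.01, 7.55, 8.56 and 8.80 CPM in PRS and at 16.7, 66.6, 16.6, 9.84 and 15.2 CPM in SIS, where SIS 4 was just above the PRS libraries and SIS 2 far above; its log2 difference of -1.56 was -0.78 without SIS 2. CDKN1A, the cell cycle inhibitor p21, was at 166, 88.4, 129 and 91.7 CPM in PRS and at 327, 853, 209, 195 and 272 CPM in SIS, and its log2 difference of -1.64 (SE 0.51) was -1.08 without SIS 2. KCTD8 had no read in any PRS library, native ones included, and was at 3.70, 0.468, 1.20, 0 and 0 CPM in SIS, at least 42.9-fold higher in SIS (against 3 counts over the PRS group).

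In the other direction, WDR52, a gene of motile cilia and sperm tails, was at 7.76, 12.5, 17.9 and 16.5 CPM in PRS and at 1.76, 2.10, 5.95, 5.83 and 4.73 CPM in SIS, a log2 difference of 1.74 (SE 0.52). SLC7A7, a subunit of a transporter of cationic amino acids, was at 9.18, 5.03, 7.62 and 6.94 CPM in PRS and at 3.97, 2.38, 3.45, 2.79 and 2.91 CPM in SIS, a log2 difference of 1.21 (SE 0.37). Neither pair of groups overlapped. ACP2, a lysosomal acid phosphatase, was at 36.2, 28.7, 70.9 and 86.3 CPM in PRS and at 24.1, 21.1, 34.7, 32.4 and 23.7 CPM in SIS, where PRS 2 fell inside the SIS range. DHX32, a helicase-like protein, was at 35.4, 41.9, 77.7 and 76.1 CPM in PRS and at 29.7, 23.1, 30.7, 44.8 and 32.9 CPM in SIS, with SIS 4 above PRS 1 and 2. GGTLC2 was at 14.6, 3.04, 15.5 and 36 CPM in PRS and at 0.969 to 7.60 CPM in SIS. CX3CL1, a membrane-bound chemokine, was at 156 CPM in PRS 3 and between 8.07 and 34.9 CPM in the other 8, and its log2 difference of 1.98 became 0.44 without PRS 3.

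Of all 17177 genes, 7 (0.0408%) had groups that did not overlap in the same direction in both regenerated and native tissue. One had no symbol, and 6 were CENPJ, PCBD2, MAGEH1, ANKDD1A, SPG7 and TEFM. CENPJ, a centriole protein, was at 7.17, 9.83, 11.4 and 10.9 CPM in PRS and at 3.83, 1.96, 4.78, 5.60 and 6.16 CPM in SIS regenerated tissue, and its log2 difference was 1.14 (SE 0.39) there and 1.02 (SE 0.39) in native bladder. PCBD2, a dehydratase and transcription cofactor, had differences of 0.92 (SE 0.38) and 0.90 (SE 0.38). MAGEH1 was at 36.4, 44.7, 23.0 and 35.4 CPM in PRS and at 59.1, 90.6, 53.2, 48.0 and 46.6 CPM in SIS, with differences of -0.77 (SE 0.26) and -1.03 (SE 0.26). ANKDD1A had a difference of -1.75 (SE 0.94) in regenerated and of -4.30 (SE 1.06) in native tissue. The differences in regenerated and native tissue were smaller for SPG7, at -0.59 (SE 0.27) and -0.24 (SE 0.27). For TEFM they were -0.46 (SE 0.40) and -0.94 (SE 0.41). The 7 genes were selected for arms that stood apart in both tissues.

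**Figure D5:**
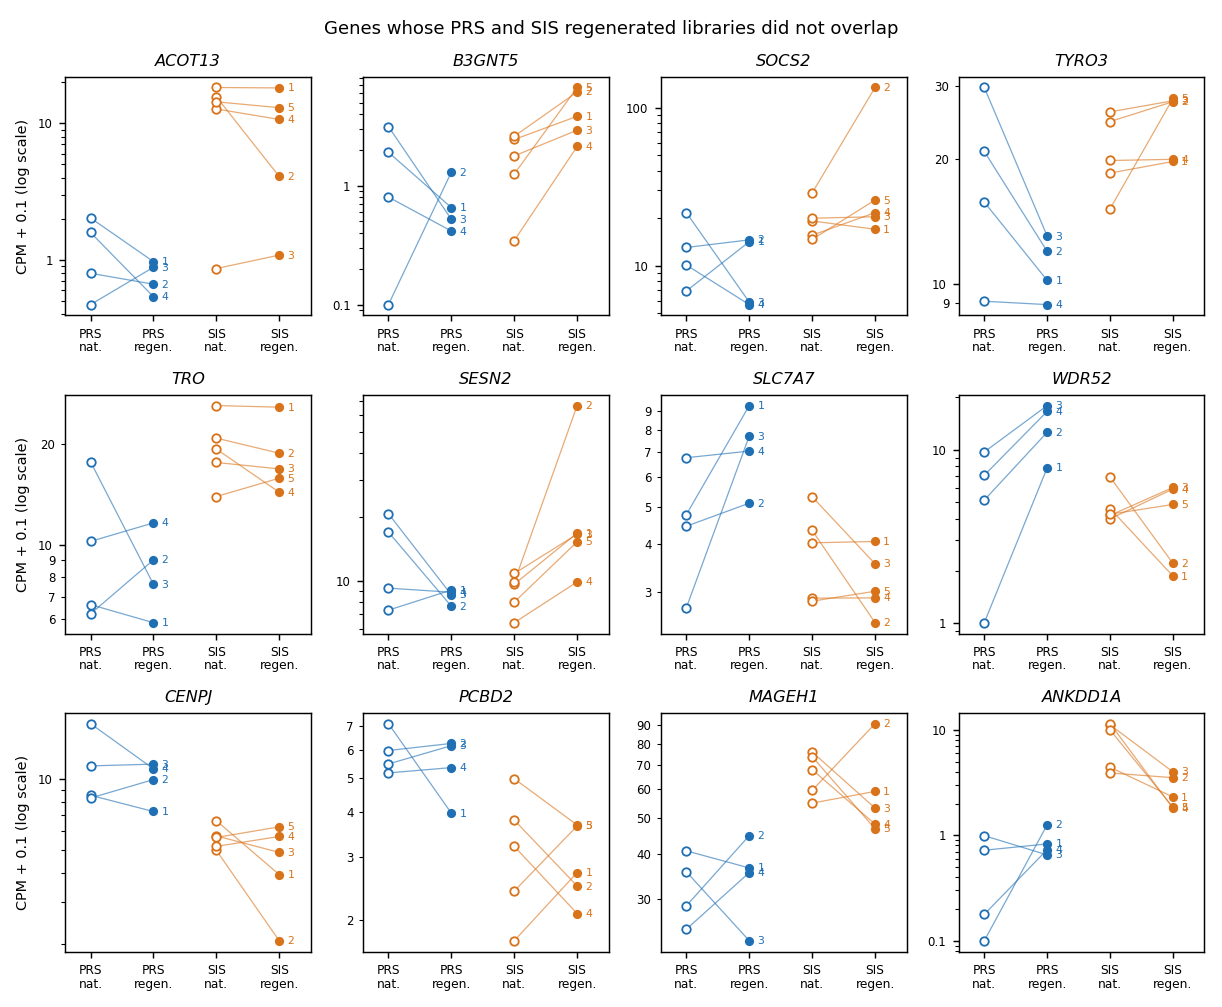
CPM + 0.1 on a log scale (y axis) of 12 genes whose PRS and SIS regenerated libraries did not overlap, in the native (open) and regenerated (filled) library of each animal, joined by a line, PRS in blue and SIS in orange. For TYRO3 all 4 PRS lines go down and all 5 SIS lines go up from native to regenerated; for CENPJ, PCBD2, MAGEH1 and ANKDD1A the groups are apart in both tissues.

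Urothelial genes mostly had lower fitted values in PRS, and no member separated the groups. Of 16 members tested, 13 had a negative log2 fold change, 0 were higher and 2 lower at an unadjusted p under 0.05 (background 2.54%), and the median was -0.85. The mean log2 CPM of the list was 7.66, 4.14, 6.86 and 6.28 in PRS and 7.64, 5.06, 8.52, 7.49 and 8.36 in SIS, so the low libraries were PRS 2 and SIS 2. The count depended on single libraries: it was 0 without PRS 2, PRS 3, PRS 4, SIS 3 or SIS 5, 4 without SIS 2 and 6 without PRS 1. UPK1B, a uroplakin of the apical plaque, was at 129, 39.1, 26.4 and 3.39 CPM in PRS and at 273, 20.8, 547, 161 and 537 CPM in SIS, a log2 difference of -2.64 (SE 1.17). GRHL3, a transcription factor of barrier epithelia, was at 53.9, 10.2, 20.1 and 18.1 CPM in PRS and at 62.7, 12.8, 129, 57.8 and 120 CPM in SIS. For both genes SIS 2 lay within the PRS range and the other SIS libraries above it. UPK1A, a partner uroplakin, was at 826, 135, 213 and 42.4 CPM in PRS and at 818, 71.0, 1919, 640 and 1658 CPM in SIS, and its difference of -1.75 (SE 1.10) did not reach an unadjusted p under 0.05. UPK3A differed less, at 854, 97.6, 1144 and 1136 CPM in PRS and 458, 56.3, 1246, 1495 and 1529 CPM in SIS, a difference of -0.24 (SE 0.92).

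Of 11 squamous differentiation genes tested, 9 had a negative log2 fold change and 2 were lower at an unadjusted p under 0.05, with a median of -1.28. SPRR1B, a cornified envelope protein, was at 71.5, 19.3, 27.8 and 4.85 CPM in PRS and at 263, 23.6, 429, 64.3 and 171 CPM in SIS. KRT13, a keratin of stratified epithelia, was at 104, 5.63, 11.1 and 4.85 CPM in PRS and at 28.7, 49.8, 337, 85.8 and 845 CPM in SIS. The groups overlapped in both genes, with PRS 1 the highest PRS library. Without PRS 1 the list had 5 members lower and a median of -2.42, and the count was 0 without PRS 2 or SIS 3 and 1 without PRS 3, PRS 4 or SIS 5. KRT16, a keratin of stressed epithelium, was the only member whose groups did not overlap, at 1.14, 0, 3.86 and 1.06 CPM in PRS and at 7.80, 11.0, 12.9, 7.50 and 5.27 CPM in SIS. In native bladder the KRT16 groups overlapped, at 0.0408 to 5.03 CPM in PRS and 0 to 2.05 CPM in SIS, and the difference between the tissues was -4.44 (SE 1.96, unadjusted p 0.0319, edgeR adjusted p = 1.00). KRT16 is given for its regenerated values, which that difference also holds, so its p is not independent of the choice.

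Smooth muscle genes varied more within the PRS group than between the groups. All 16 contractile genes tested had a positive log2 fold change with a median of 0.89, but only CASQ2, a calcium store protein, reached an unadjusted p under 0.05, and none did without PRS 2, SIS 2, SIS 3, SIS 4 or SIS 5. The mean log2 CPM was 8.77, 11.3, 6.10 and 5.65 in PRS and 9.36, 9.32, 7.60, 6.95 and 7.89 in SIS, so PRS held both the highest library and the 2 lowest. DES, the muscle intermediate filament, was at 9165, 31035, 1681 and 1524 CPM in PRS and at 11633, 17492, 3052, 3167 and 3728 CPM in SIS. ACTG2, smooth muscle actin, was at 4127, 18573, 479 and 433 CPM in PRS and at 4979, 8816, 1988, 1415 and 2118 CPM in SIS. CASQ2 was at 919 CPM in PRS 2 and at most 58 CPM in the other 8. Without PRS 2 the list median was -1.01 and DES had a log2 difference of -0.92 in place of 0.47. The lists of muscle and of secretory epithelium ran in opposite order among the PRS libraries, PRS 2 being highest in the first and lowest in the second and PRS 4 the reverse. The part of the muscle share of each piece in the other differences was not tested.

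Among receptors and channels of bladder contraction, 1 of 17 was higher and 1 lower at an unadjusted p under 0.05. These counts were 0 and 0 without SIS 5, 1 and 3 without PRS 2, 2 and 0 without PRS 3 or PRS 4, and 2 and 1 without SIS 1, SIS 2 or SIS 4. CACNA1C, the pore of the L-type calcium channel that carries detrusor contraction, was at 47.3, 317, 45.5 and 54.0 CPM in PRS and at 42.6, 41.2, 31.2, 34.3 and 25.5 CPM in SIS. The groups did not overlap, yet PRS 2 set most of the log2 difference of 1.73 (SE 0.75), which was 0.49 without it. TACR1, the substance P receptor, was at 2.53, 3.79, 0.713 and 0.316 CPM in PRS and at 10.5, 5.00, 12.2, 1.23 and 22.9 CPM in SIS, a log2 difference of -2.50 (SE 1.09). CHRM2, a muscarinic receptor, was at 70.1 CPM in PRS 2 and at 0 to 5.97 CPM in the others. Neuronal genes had 0 of 15 members at an unadjusted p under 0.05 and a median of 0.02, and Schwann cell genes 0 of 13. In native bladder 6 neuronal members were lower in PRS than in SIS, and 3 without SIS native 4. That library stood apart, with a list mean of 3.54 log2 CPM against -0.62 to -0.08 in the other 4 SIS and -2.19 to -0.53 in the PRS native libraries.

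Regional patterning factors of the mesenchyme had 1 of 20 members higher and 2 lower at an unadjusted p under 0.05, with a median of 0.56 that was 0.03 without PRS 2. The count of higher members was 3 without SIS 1, 2 without PRS 1 and 0 without PRS 2 or SIS 5, and that of lower members 1 without PRS 3 or SIS 3. TCF21, a factor of visceral fibroblast precursors, was at 43.1, 32.2, 16 and 16.4 CPM in PRS and at 99.3, 182, 54.3, 33.1 and 45.2 CPM in SIS, a log2 difference of -1.62 (SE 0.53). Only SIS 4 fell within the PRS range. TBX2, a T-box repressor, was at 59.6, 74.4, 21.2 and 30.8 CPM in PRS and at 156, 60.7, 237, 36.9 and 114 CPM in SIS, with a difference of -1.38 (SE 0.53). HOXD10, a gene of the posterior body axis, was at 3.67, 9.39, 2.30 and 3.35 CPM in PRS and at 2.58, 1.87, 2.15, 2.17 and 0.659 CPM in SIS. Lists with 0 members at an unadjusted p under 0.05 in either direction were those of endothelium (18 tested, median 0.07), interferon response (18, 0.25), antigen presentation (17, 0.32), mesenchymal stromal cells (13, -0.27), haematopoietic stem and progenitor cells (12, -0.16), adipocytes (14, -0.40) and mitochondrial transcripts (13, 0.43). The mitochondrial share of counts was 9.73 ± 0.797% (SD, n = 4) in PRS and 8.24 ± 1.99% (SD, n = 5) in SIS, with a two-sided exact permutation p of 0.198. SIS 5 had the highest share of all regenerated libraries, at 11.6%. Without SIS 5 the difference of 1.49 percentage points became 2.32 with an exact permutation p of 0.0286. That is the smallest p that 4 against 4 libraries allow, and SIS 5 is the library whose removal favours a difference most.

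Whether the arms differed in their grafts beyond their native bladders was addressed by the difference of the graft-minus-native changes. The main test of it held no term for the animal and so left the pairing out. In native bladder 0 of 17177 genes passed an adjusted p of 0.05 in edgeR (smallest 0.536), with 719 higher (4.19%) and 486 lower (2.83%) in PRS before adjustment at p under 0.05, while 59 genes (0.344%) were called higher and 55 (0.321%) lower by DESeq2. For the difference of the graft-minus-native changes edgeR again called 0 genes, with 343 (2.00%) on the PRS side and 340 (1.98%) on the SIS side before adjustment at p under 0.05, while DESeq2 placed 15 genes (0.0876%) on the PRS side and 5 (0.0292%) on the SIS side. The secretory, B cell and cell division lists had native medians of 2.27, 5.00 and 2.24, and all 3 were above 1 in regenerated tissue. The squamous and smooth muscle lists had native medians of 0.80 and -0.39, opposite in sign to the regenerated values of -1.28 and 0.89. Without PRS native 4 the native medians of the cell division, squamous and smooth muscle lists were 0.71, 0.07 and 0.0051, and without SIS native 4 that of the smooth muscle list was 0.04, so its sign rested on single libraries. The regenerated median of the smooth muscle list rested on PRS 2 in turn and was -1.01 without that library. The list's mean log2 CPM was 7.96 in PRS against 8.22 in SIS regenerated tissue. In native tissue it was 8.55 against 9.36, so by this measure PRS was the lower arm in both tissues. The native and regenerated contrasts use the same animals, so they are not independent.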

How the data were processed

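RNA-seq gene counts from 28 libraries of 14 olive baboons were analysed, of which the 4 PRS and 5 SIS regenerated libraries and the native libraries of the same 9 animals are reported. The values in the table are read counts per gene as the authors deposited them, with no normalization. The tools named in the submitters' processing notes are featureCounts 1.5.0-p3, HISAT2 2.0.5 and StringTie 1.3.3b. Not given in the sources used here are the build, the annotation and whether counting used strand, and overlapping and antisense genes, and near-identical copies such as GGTLC2, may share reads. Per the labels' protocols, mRNA was captured on poly-T beads, libraries were directional (dUTP) and reads were paired-end.

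All 28 libraries, in 6 groups, entered 1 quasi-likelihood fit in edgeR 4.0.16 (R 4.3.3) so that they shared an estimate of the spread. Of 27533 genes, 17177 passed filterByExpr with a minimum count of 10, and 15120 of these had a symbol. Libraries were scaled by TMM, and p-values were adjusted by Benjamini and Hochberg's method over all genes tested, with a threshold of 0.05. The test was tested on simulated data. List means are of log2 CPM with a prior count of 2. A group without a read was set to 3 counts over the group for a lower bound on a fold, which covers counting error only. The labels name a separate animal for each of the 9 regenerated libraries, so the groups of that comparison hold 1 library per animal. The fit had no term for the animal. Native and regenerated libraries of an animal therefore counted as independent in the shared spread and in the test of the difference of the changes. The animal entered as a term only in an alternative for that difference.

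The rule for named genes took, in each direction, 12 genes that passed the threshold, and, as none did, filled them with the genes with a symbol of smallest unadjusted p whose higher group had a mean of at least 1 CPM. It added the 2 members of smallest p of each of 32 gene lists and fixed markers, some of which are left out for room or are not reported here. The members and lists were chosen with earlier results of these data known. Alternatives were DESeq2 1.42.0, RLE scaling, other filters, a robust spread, fewer libraries in the fit, the letter of the animal code, replicate blocks and leaving out each library. List counts without each native library were added after seeing the data. Native and regenerated libraries of an animal are paired by the codes in the labels. Their deviations from the group means correlated at -0.195 to 0.612 over the 9 animals, and in 4 of 9 the animal's own library was the best match.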

Additional observations from a re-analysis of the deposited data

Results flagged for a closer look

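On the log2 scale, 236 sets of 4 or 5 regenerated libraries were examined for a library far from the rest of its group, and 36 were found. Chance gives about 1 in 20 for a set not chosen by its values, and many of these sets were genes named for their values. SIS 2 was far above the other SIS libraries in the mean log2 CPM of the fibrosis list (8.77), the protease list (7.38), the endothelium list (5.03) and the cartilage and bone list (2.22). It was also far above them for MMP1 (2092 CPM), TNFAIP6 (1453 CPM), CCL2 (1196 CPM), TGFBI (1131 CPM), HMOX1 (906 CPM), PLAU (892 CPM), MMP3 (814 CPM) and IL6 (599 CPM). The same held for ELN (450 CPM), TGFB1 (425 CPM), FST (357 CPM), HAS1 (306 CPM), INHBA (287 CPM), SOCS2 (134 CPM), IL11 (110 CPM), SESN2 (66.6 CPM) and CDX2 (0.561 CPM).

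SIS 4 was far above the other SIS libraries for SLC5A1 (36.7 CPM), RETNLB (34.2 CPM), CCL28 (3.23 CPM), TFF3 (0.307 CPM) and RNF186 (0.195 CPM). SIS 3 stood out in the cell division list (2.26) and for SLC13A2 (0.625 CPM), and SIS 5 was far below the others for HOXD10 (0.659 CPM). Among the PRS libraries, PRS 1 was far above the others in the WNT and hedgehog list (3.16), PRS 2 for CACNA1C (317 CPM), PRS 3 for RNF186 (8.59 CPM) and PRS 4 for HMOX1 (13.5 CPM) and CDX2 (0.0394 CPM). The CDX2 value was a single read, 1 against 0 in PRS 1 to 3, so that item has no weight. PRS 2 was far below the others for UPK3A (97.6 CPM) and PRS 3 for PGK1 (123 CPM).

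TYRO3 moved in opposite directions from native to regenerated tissue in the arms, down in all 4 PRS animals and up in all 5 SIS animals. The mean change differed by -0.91 on the log2 scale, and edgeR's test of that difference gave an unadjusted p of 0.0324 and an adjusted p of 1.00. The gene was named for its regenerated values, which that difference also holds.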

How the results depend on the processing

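In edgeR, 0 genes were called in either direction in the regenerated comparison under RLE scaling, no filter, a minimum count of 50, a robust spread, the code letter as a term, the 9 regenerated libraries alone, the replicate block on the title number, and each library left out. At an unadjusted p under 0.05 the leave-outs gave 217 to 530 genes higher and 276 to 605 lower. DESeq2 called 8 higher and 7 lower in regenerated tissue, 59 and 55 in native tissue and 15 and 5 for the difference of the changes. Native genes lower numbered 0 to 1 with a library left out, the 1 being without PRS native 4. The replicate block on the animal gave 0 and 0 for the difference of the changes; for that and the native comparison, the scaling, filter, spread and code-letter alternatives were chosen after seeing the data. Same-numbered PRS and SIS libraries are different animals (correlations 0.018 to 0.286), and in 1 of the 4 pairs the PRS library matched its own number best. The difference in mitochondrial share lay between 1.07 and 2.32 percentage points.

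With a library left out, log2 fold changes changed sign within these ranges: HMOX1 -5.23 to 0.072, TNC -2.43 to 0.011, COL1A1 -1.58 to 0.047, ELN -1.52 to 0.26, IL6 -5.38 to 0.37, PTGS2 -3.03 to 0.19, IL11 -7.25 to 1.32, INHBA -2.61 to 1.14, CDX2 -4.41 to 1.6 and TNFAIP6 -5.38 to 0.034, each positive without SIS 2. Outside SIS 2, CDX2 had 1 read, in PRS 4. JCHAIN (-0.38 to 1.65) and OLFM4 (-1.26 to 4.84) were negative without PRS 4. CASQ2 (-0.59 to 3.52), DES (-0.92 to 1.01), ACTG2 (-1.20 to 1.17) and CHRM2 (-1.45 to 2.98) were negative without PRS 2. UPK3A (-0.55 to 0.13) was positive without PRS 2 and at 0.0018 without SIS 5. For these genes the cause was not tested beyond the library left out. The depth of 23598232 to 31743317 counts puts 3 counts at 0.0815 to 0.140 CPM in a library.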

Other observations

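Further genes, chosen after their values were seen, were high in a PRS animal in both tissues. CYP1A1, an enzyme induced by aromatic compounds, was at 1533 CPM in PRS 4 and at most 18.7 CPM in the other 8 regenerated libraries. The native bladder of that animal had 821 CPM, the highest native value. CYP1A1 also had 8144 reads over the SIS native libraries, against 1615 over the SIS regenerated ones. Its log2 difference between the groups was 5.28 with all libraries and -1.04 without PRS 4. ATP8, a mitochondrial gene of ATP synthase, was at 363 CPM in PRS 1 and at most 36.8 CPM in the other 8, and at 425 CPM in the native bladder of that animal.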
